A study of Mus musculus with 72 samples.

Results

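Cxcl1, measured by the array probe ILMN_2763245, was followed through 72 arrays of 5 mouse organs in experimental sepsis. It is 1 of 45255 complete probe rows in the deposited tables. The row was selected from an earlier reading of these data, on its higher values in the CLP arm than in the sham arm and on the large spread between animals of the MSC and CLP arms. Those CLP and sham levels and that spread are therefore given as a description with no test, and the tests concern the MSC arm, the organs and the order of the mice. The platform annotation pairs the probe with Cxcl1 (Entrez gene 14825), and it is the only probe there with that gene. The tables themselves name no gene.

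All arrays came from female C57Bl/6J mice, whose organs were taken 28 hours after surgery. In the MSC arm the cecum was ligated and perforated (CLP), which lets gut bacteria into the abdomen, and 250000 mesenchymal stem cells in 100 µL were infused through a cannula 6 hours after surgery. The cells were grown from male C57Bl/6J mice and used at passages 8 to 11. The CLP arm had the same injury and an infusion of saline, and the sham arm had an operation without the injury and saline. Liver, lung, kidney and heart came from 5 numbered mice per arm, the same 15 mice in all 4 organs, although the series' design text speaks of 4 animals per group. The 4 spleens per arm carry labels of their own and could not be tied to these mice. The comparison asked how gene expression in septic organs differs with infused cells.

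Cxcl1, also called KC in the mouse, is a secreted CXC chemokine. It binds the receptor CXCR2 on neutrophils and draws them out of the blood, together with its neighbours Cxcl2, Cxcl3, Cxcl5 and Ppbp, which use the same receptor. Cxcl15 was kept in the same list, although its receptor was not examined here. The Cxcl1 transcript is a classical early target of the transcription factor NF-kB, downstream of Toll-like receptors, TNF and interleukin-1. It is made by epithelium, endothelium, fibroblasts and macrophages in many organs. A20 (Tnfaip3) is induced by the same signals and limits them, and Socs3 is an induced inhibitor of cytokine signalling.

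In the GRCm38.p6 assembly, RefSeq places Cxcl1 on chromosome 5 from 90891245 to 90893121, and Cxcl2 begins 10778 bases beyond its end. The stretches just upstream of both transcript starts are shown because Cxcl2, the nearest gene downstream, is the CXCR2 ligand whose values came closest to those of Cxcl1. RefSeq's promoter table gives the 150 bases before each start, plus strand, 5′ to 3′, as chr5:90891095-90891244 for Cxcl1 and chr5:90903749-90903898 for Cxcl2, and capitals mark the letters that match the NF-kB consensus.
Cxcl1: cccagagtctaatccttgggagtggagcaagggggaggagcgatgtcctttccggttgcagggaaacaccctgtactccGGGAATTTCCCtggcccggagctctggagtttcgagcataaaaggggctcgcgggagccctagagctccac
Cxcl2: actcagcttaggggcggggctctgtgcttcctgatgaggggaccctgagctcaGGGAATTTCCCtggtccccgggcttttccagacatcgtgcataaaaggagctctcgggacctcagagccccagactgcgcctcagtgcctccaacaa
Each holds the same capitals, read as 2 overlapping matches of the 10-letter consensus, 1 on each strand, beginning at base -71 of Cxcl1 and base -97 of Cxcl2. Of 32851 promoters of the same table, searched from 250 bases before to 50 bases after the start, 8.5% held at least 1 match and 1.22% held 2 or more. Cxcl3 held 2 matches, while Cxcl15 and Ppbp held 0 in this window. A match describes letters only and was not read as a bound site.

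Before the values, the labels of the spleen need a caution. The deposit holds a table whose columns carry the study's own names and a series matrix whose columns carry sample records, and they place 7 of the 12 spleen arrays under different samples. For 2 of these the arm changes. The array in column E2 is sham by its name and MSC8 in the series matrix, and the array in column D2 is MSC by its name and sham s3 in the series matrix. Results of the spleen are given by column name, with the other placement beside them. For the 60 arrays of the other organs the tables agree. Markers of liver, lung, kidney and heart matched the labels: in sham mice the mean log2 level of the organ's own marker list was 11.31 to 11.50 in liver, 13.59 to 13.71 in lung, 11.70 to 12.04 in kidney and 13.53 to 14.02 in heart. The list for the spleen, made of B and T cell genes, could not check the spleen labels in this way. Spleen arrays were normalised apart from the other organs, so their levels are on another scale. The list averaged 9.16 to 9.44 in sham spleens, 10.40 to 10.74 in sham lungs and 12.26 in sham heart 78S.

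With spleens taken by column name, Cxcl1 was high in every injured organ, whether or not cells were given. Its values in injured mice then lay above those of all sham mice in all 5 organs. With the arms of the series matrix the injured and sham spleens overlapped, with 1 sham spleen at 13.77 and 1 MSC spleen at 6.74 on its own scale. These are the arrays D2 and E2, which stand at 13.45 and 6.43 on the scale used elsewhere for Cxcl1. Values are deposited intensities on a log2 scale, 1 per array. The spleen arrays were normalised apart from the other organs, so spleen levels are compared only within the spleen. These are whole organs, in which more cells that make the transcript and more transcript per cell cannot be told apart.

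**Figure D1:**
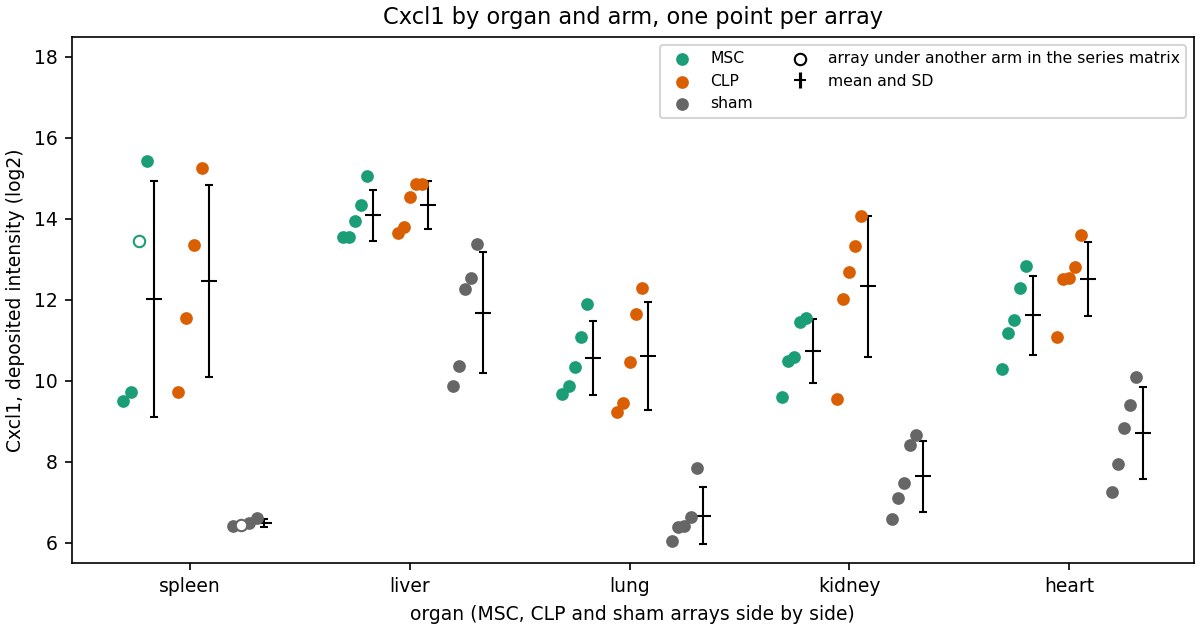
Deposited Cxcl1 intensity (log2, vertical axis) in each of 72 arrays, grouped by organ, with the MSC, CLP and sham arms from left to right; black marks are means with SD, and open points are the 2 spleens that the tables place in different arms. With spleens drawn by column name, the sham points of each organ lie below those of both injured arms. The spread is widest in injured spleens and in CLP kidneys.

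In the spleen, Cxcl1 stood at 9.49, 9.71, 15.42 and 13.45 in the MSC arrays C, D, C2 and D2. The CLP arrays A, B, A2 and B2 gave 15.25, 9.71, 13.36 and 11.56. Sham arrays E, F, E2 and F2 gave 6.48, 6.62, 6.43 and 6.40. By these column names, injured spleens spread over several log2 units within an arm, while sham spleens stayed within a narrow band. The means were 12.02 ± 2.91 in MSC spleens, 12.47 ± 2.38 in CLP spleens and 6.48 ± 0.10 in sham spleens (SD, n = 4 each). Both MSC spleens labelled with a letter alone were the low ones and both with a 2 were the high ones, whereas each label set of the CLP arm held a high and a lower array.

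In the liver, MSC mice 16M, 44M, 61M, 100M and 101M had 13.55, 13.55, 13.95, 15.06 and 14.34. CLP mice 24C, 34C, 35C, 37C and 107C had 14.87, 14.54, 13.79, 13.64 and 14.85. Sham mice 21S, 22S, 76S, 77S and 78S had 12.27, 13.39, 12.53, 10.36 and 9.87. The liver was the organ with the highest sham level and the widest sham spread, and the highest sham liver came close to the lowest injured ones. Means were 14.09 ± 0.64 in MSC livers, 14.34 ± 0.58 in CLP livers and 11.69 ± 1.50 in sham livers (SD, n = 5 each).

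In the lung, MSC mice 16M, 44M, 61M, 100M and 101M had 9.86, 11.07, 10.34, 11.89 and 9.67. CLP mice 24C, 34C, 35C, 37C and 107C had 12.29, 10.47, 11.65, 9.45 and 9.22. Sham mice 21S, 22S, 76S, 77S and 78S had 7.85, 6.42, 6.64, 6.38 and 6.04. The sham lung 21S stood apart from the other sham lungs and still lay below every injured lung. Means were 10.57 ± 0.92 in MSC lungs, 10.62 ± 1.34 in CLP lungs and 6.67 ± 0.70 in sham lungs (SD, n = 5 each).

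In the kidney, MSC mice 16M, 44M, 61M, 100M and 101M had 11.54, 10.48, 9.60, 11.45 and 10.58. CLP mice 24C, 34C, 35C, 37C and 107C had 14.07, 12.03, 12.68, 13.33 and 9.54. Sham mice 21S, 22S, 76S, 77S and 78S had 6.58, 8.40, 7.09, 7.48 and 8.66. Of the CLP kidneys, 4 lay above all MSC kidneys and the fifth, 107C, lay below them all. Means were 10.73 ± 0.79 in MSC kidneys, 12.33 ± 1.73 in CLP kidneys and 7.64 ± 0.87 in sham kidneys (SD, n = 5 each).

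In the heart, MSC mice 16M, 44M, 61M, 100M and 101M had 11.50, 10.29, 12.83, 12.28 and 11.17. CLP mice 24C, 34C, 35C, 37C and 107C had 13.60, 12.51, 12.82, 12.55 and 11.07. Sham mice 21S, 22S, 76S, 77S and 78S had 9.41, 10.10, 8.83, 7.95 and 7.26. The injured arms overlapped broadly, and CLP mouse 107C was again the lowest of its arm. Means were 11.62 ± 0.98 in MSC hearts, 12.51 ± 0.91 in CLP hearts and 8.71 ± 1.13 in sham hearts (SD, n = 5 each).

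As a description of what selected the row, the CLP minus sham difference on the log2 scale was 5.99 in spleen (63.6-fold), 4.69 in kidney (25.8-fold), 3.95 in lung (15.5-fold), 3.80 in heart (13.9-fold) and 2.65 in liver (6.29-fold). The liver had the smallest difference and the highest sham level. With the arms of the series matrix, in which 1 sham spleen stands at 13.77 and 1 MSC spleen at 6.74 on its own scale, the spleen difference was 4.24. Among the 4 organs normalised together the order of mean levels was liver, heart, kidney, lung in all 3 arms. Heart and kidney differed by less than their SDs in CLP mice, as did kidney and lung in MSC mice.

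The spread between animals was large beside that of other probes. In CLP mice the SD of Cxcl1 exceeded that of 99.7% of the probes tested in spleen, 99.9% in lung, 99.9% in kidney, 97.1% in heart and 82.4% in liver. In MSC mice the matching shares were 99.7% in spleen, 99.5% in lung, 98.5% in kidney, 98.9% in heart and 94.8% in liver. The spread was also large in sham mice outside the spleen: the SD exceeded that of 99.9% of probes in liver, 99.7% in lung, 99.3% in kidney and 98.2% in heart. In sham spleens, by column name, it exceeded that of 20.9%. All spleen shares here rest on the column names. With the arms of the series matrix 1 sham spleen stands at 13.77 and 1 MSC spleen at 6.74 on its own scale, so the narrow sham spread does not hold there. In the kidney the SD was 0.79 in MSC mice against 1.73 in CLP mice, and in heart it was 0.98 in MSC mice against 0.91 in CLP mice.

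MSC mice and CLP mice did not differ in Cxcl1 past the threshold in any organ. Estimates were below 0 in all 5 organs, from -0.05 in lung to -1.60 in kidney, and those of lung and spleen turned above 0 without single arrays. The tests used limma across all probes above a floor of 6 log2 in enough arrays. The threshold was 0.05 on the p adjusted by Benjamini and Hochberg's method. The tests share the CLP arrays that took part in selecting the row. The spread of the MSC and CLP arrays also took part in that selection, and it enters the SE, interval and p of each contrast. Precision was set by the number of arrays, 4 or 5 per arm.

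In the kidney the MSC minus CLP difference was -1.60 (SE 0.67, 95% interval -3.01 to -0.19 before adjustment, adjusted p 0.145), and an exact two-sided permutation test over the 10 kidneys gave 0.103. In the heart it was -0.89 (SE 0.57, interval -2.10 to 0.31, adjusted p 0.413). The spleen gave -0.45 (SE 1.33, interval -3.36 to 2.46, adjusted p 1) by column name and -2.21 (adjusted p 0.812) with the arms of the series matrix. The liver gave -0.25 (SE 0.55, interval -1.41 to 0.91, adjusted p 0.799) and the lung -0.05 (SE 0.55, interval -1.22 to 1.12, adjusted p 0.967). These intervals leave room for differences of more than 1 log2 unit in either direction in spleen and lung, so the arms are not shown to be alike.

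Averaged over liver, lung, kidney and heart, the MSC mice 16M, 44M, 61M, 100M and 101M had 11.61, 11.35, 11.68, 12.67 and 11.44. CLP mice 24C, 34C, 35C, 37C and 107C had 13.71, 12.39, 12.74, 12.24 and 11.17. Thus 4 of 5 CLP mice lay above 4 of 5 MSC mice, and 107C lay below all MSC mice. The difference was -0.70 (SE 0.40, interval -1.54 to 0.15, limma adjusted p 0.21). Whether MSC minus CLP differed between the 4 organs was tested by the interaction of organ and arm, with no call for Cxcl1 (F 1.73, adjusted p 0.352).

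**Figure D2:**
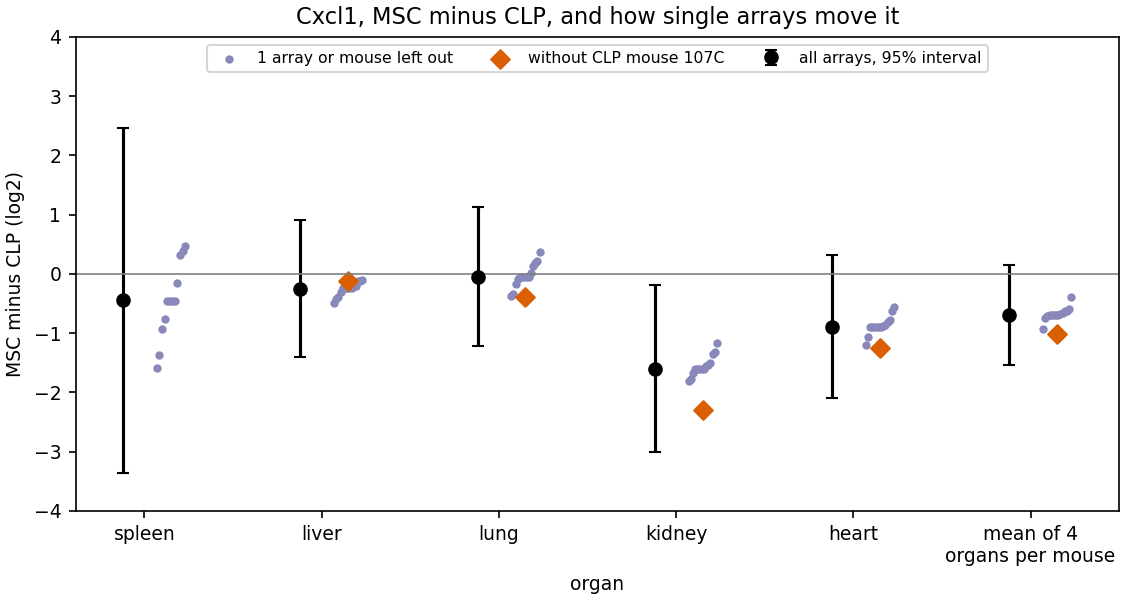
MSC minus CLP difference of Cxcl1 (log2, vertical axis) in each organ and in the mean of 4 organs per mouse; black points show all arrays with the 95% interval, small points the difference with 1 array or mouse left out, and diamonds the difference without CLP mouse 107C. The kidney estimate lies furthest below 0, at -1.60 with all arrays and -2.30 without 107C.

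A single animal moved these calls past the threshold when left out. Without CLP mouse 107C the kidney difference was -2.30 (SE 0.48, adjusted p 0.00243) and the 4-organ mean -1.02 (SE 0.35, adjusted p 0.0277). Leaving out any other kidney array gave adjusted p between 0.107 and 0.316. The same omission moved the whole array: without 107C, 33.9% of kidney probes and 43.5% of probes in the 4-organ mean passed, against 0.0227% and 12.7% with it, so the change is not limited to Cxcl1. The lymphocyte markers of mouse 107C averaged 10.72 in its heart, the highest of the CLP hearts, whose lowest was 7.49. In its kidney the same markers averaged 7.62, where CLP kidneys ran from 7.46 to 7.66. They averaged 7.84 in its liver (CLP livers 7.52 to 7.89) and 9.20 in its lung (CLP lungs 9.01 to 9.44). Their part in the result was not tested.

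As a background for these calls, MSC minus CLP was past the threshold for 0% of probes in spleen, 5.96% in liver, 0% in lung, 0.0227% in kidney and 0.0113% in heart. With 0 calls by limma, 428 of 11048 spleen probes and 2261 of 8684 lung probes had an unadjusted p below 0.05. The interaction of organ and arm was called for 11% of probes.

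Against sham mice, Cxcl1 was higher in the MSC arm in all 5 organs. The log2 difference was 5.54 in spleen (SE 1.33, adjusted p 0.0301), 3.90 in lung (SE 0.55, adjusted p 0.000211), 3.09 in kidney (SE 0.67, adjusted p 0.0124), 2.91 in heart (SE 0.57, adjusted p 0.0108) and 2.40 in liver (SE 0.55, adjusted p 0.0057), all by limma. In the 4-organ mean it was 3.08 (SE 0.40, adjusted p 0.000242), with 5 of 5 MSC mice above every sham mouse. With any 1 array left out, the calls in liver, lung, kidney and heart held, at adjusted p up to 0.0391. These tests share the sham arrays used in selecting the row. Their SE and p also draw on the MSC and CLP spread on which it was selected. The background share called was 7.53% in spleen, 20.3% in liver, 9.11% in lung, 6.54% in kidney, 2.72% in heart and 11.7% in the 4-organ mean.

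The spleen call rested on the labels. With the arms of the series matrix the MSC minus sham difference was 2.03 (adjusted p 0.997), and without the 2 arrays in doubt it was 5.04 (adjusted p 0.164). It also missed the threshold without any 1 of the 4 sham spleens, or without MSC spleen C2 or D2, at adjusted p from 0.0652 to 0.0842. The fit assumes a common spread, whereas the SD was 2.91 in MSC spleens against 0.10 in sham spleens.

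Within an arm, a mouse that was high in 1 organ was not always high in the others. CLP mouse 24C ranked 1 in all 4 organs. Mouse 107C ranked 5 in lung, kidney and heart but ranked 2 in liver, at 14.85 beside the 14.87 of 24C. Agreement of the ranks, as Kendall's W over 5 mice and 4 organs (0 for none, 1 for the same order), was 0.61 in the CLP arm. The one-sided exact permutation p was 0.0246, and 0.0739 after adjustment over the 3 arms, so it did not pass. Without mouse 24C, W was 0.23 (unadjusted exact p 0.508), and over lung, kidney and heart alone it was 0.89 (unadjusted exact p 0.00403).

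In the MSC arm W was 0.31 (exact permutation p 0.317, also 0.317 adjusted). Mouse 100M ranked 1 in liver and lung and 2 in kidney and heart, while 61M ranked 1 in heart and 5 in kidney. The heart of 61M was also the highest MSC heart for liver markers (6.75, median of the arm 4.68). The same holds for lymphocyte markers (9.52, median 7.60). Their part in its Cxcl1 value was not tested. Sham mice gave 0.32 (exact permutation p 0.286, adjusted 0.317). Mouse 78S had the lowest Cxcl1 of the sham livers, lungs and hearts and the highest of the sham kidneys. In that kidney the markers of liver averaged 8.77, the highest of the sham kidneys, whose median was 6.37. In its heart the lymphocyte markers averaged 12.26, above the 7.76 to 8.95 of the other sham hearts. The part of either in its Cxcl1 values was not tested.

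**Figure D3:**
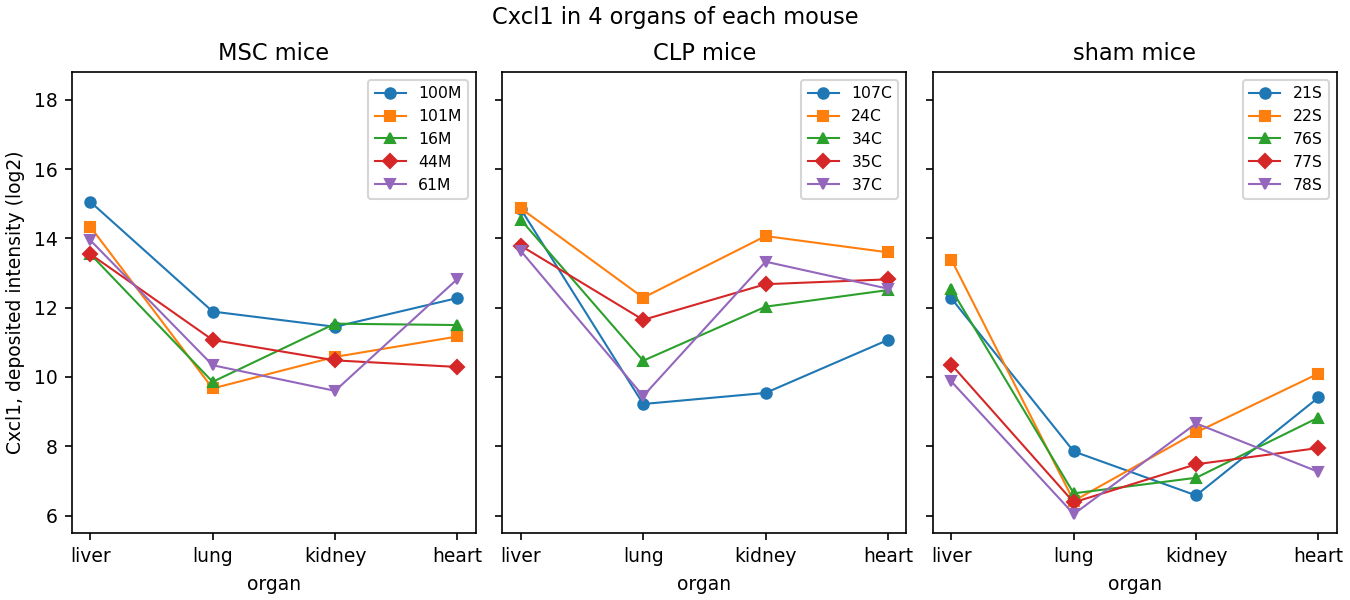
Cxcl1 intensity (log2, vertical axis) in 4 organs of every mouse, with 1 line per mouse, in panels for the MSC, CLP and sham arms. Mouse 24C lies on top of the CLP arm in all 4 organs, and 107C drops from the top group in liver to the bottom in lung, kidney and heart.

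Several other lists also had mouse 24C at the top of the CLP arm. The list of NF-kB targets and feedback genes, 16 of whose 17 members are named on the array, had its highest mean level in mouse 24C and its lowest in mouse 107C in each of the 4 organs, for example 9.45 and 7.94 in kidney and 10.65 and 9.32 in lung. In the liver 107C was thus lowest for these genes and near the top for Cxcl1. The other chemokines had 24C at rank 1 in all 4 organs, with 107C at 5 in liver, 4 in lung, 2 in kidney and 2 in heart. Early cytokines had 24C at rank 1 in liver, lung and kidney and 2 in heart, and 107C at 5 in liver, lung and kidney and 3 in heart. Neutrophil markers, 12 of 13 named, had 107C lowest in liver (8.13), lung (10.73) and kidney (7.32) as well, whereas 24C ranked 4 in liver, 4 in lung, 3 in kidney and 5 in heart.

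The probes whose pattern was most like that of Cxcl1 were sought among 6746 others tested in all 5 organs, by Pearson's r over the arrays of an organ, averaged over organs. The measure is a description, with no p, over 12 arrays of the spleen and 15 of each other organ, and the 4 organs other than spleen come from the same 15 mice. The closest was Socs3, a feedback inhibitor of cytokine signalling (mean r 0.92, from 0.84 in lung to 0.97 in spleen). Then came Map3k8, a kinase that relays Toll-like receptor signals (0.90), Litaf, named for lipopolysaccharide-induced TNF factor (0.89), Cxcl2 (0.88), ceruloplasmin, Cp (0.87), and Myd88, the adaptor of Toll-like and interleukin-1 receptors (0.87). The median probe had a mean r of 0.04, and 38 exceeded 0.80.

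At the other end stood Wdr6 (mean r -0.83) and Dbp, a transcription factor of the circadian output (mean r -0.82). In the series matrix, whose usable rows are more numerous and which was added after the data were seen, 16807 other probes could be compared, and Nfkbiz, an NF-kB cofactor induced by the same signals, led with 0.95 ahead of Socs3 at 0.92, Map3k8 at 0.90, Bcl3 at 0.90, Junb at 0.90 and Timp1 at 0.90.

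Taking deviations from the arm means in MSC and CLP arrays only, the measure asks which genes varied with Cxcl1 among injured animals. Cp led (mean r 0.78), followed by Ttc39b (0.75), Cxcl2 (0.75), Gch1, which makes tetrahydrobiopterin (0.73), the inflammatory caspase Casp4 (0.72) and Litaf (0.70). The median was -0.02. Cxcl2 tracked Cxcl1 closely in spleen (0.98), heart (0.96), kidney (0.94) and lung (0.81), and hardly in liver (0.07). Casp4 had the same gap, with -0.02 in liver and 0.83 to 0.93 in the other organs. In the series matrix Nfkbiz led (0.86), with 0.79 in liver, followed by Cp, Tnfaip3 (0.77), Zc3h12a (0.76), Ttc39b and Cxcl2.

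**Figure D4:**
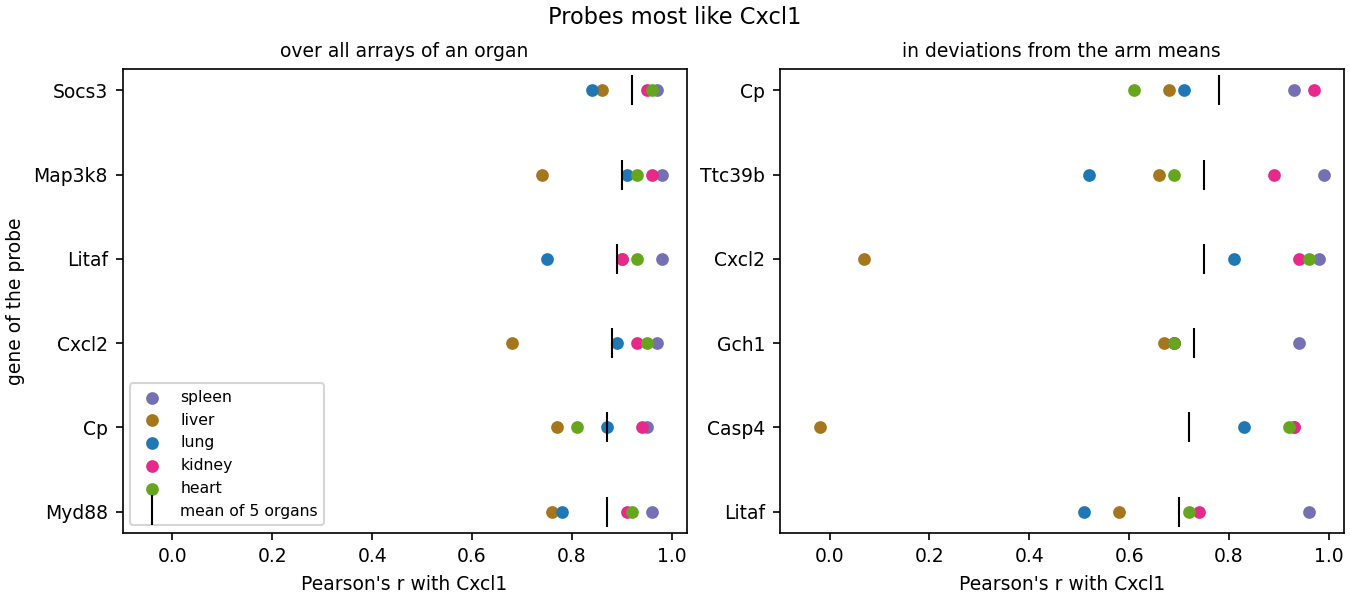
Pearson's r with Cxcl1 (horizontal axis) in each of 5 organs for the 6 probes most alike over all arrays (left) and in deviations from the arm means of injured mice (right); coloured points are organs and black bars their mean. In the right panel the liver points of Cxcl2 and Casp4 lie near 0, apart from their other organs.

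Of the other genes listed as CXCR2 ligands, Cxcl2 was the one that was higher after CLP. On the series matrix scale, where many rows can be read that the named-column table shifts, CLP minus sham was 3.96 in liver (SE 0.35, adjusted p 1.96e-06), 3.07 in kidney (SE 0.62, adjusted p 0.00272), 2.97 in heart (SE 0.57, adjusted p 0.00357) and 2.64 in lung (SE 0.57, adjusted p 0.003), by limma. In the spleen, without the 2 arrays in doubt, it was 5.79 and did not pass (SE 1.88, adjusted p 0.0907). Cxcl2 lay between 8.62 and 10.51 in CLP livers against 4.95 to 5.99 in sham livers, and its arms overlapped only in lung, at 6.67 to 10.49 against 5.72 to 7.42. Every sham value of spleen, liver and kidney lay under the floor of 6, so those differences rest on very low sham values. In these organs Cxcl2 entered the test only through the injured arms, where it is high. Their adjusted p for CLP minus sham is therefore not read as support.

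Ppbp, the platelet chemokine precursor, fell by 1.43 on the log2 scale in lung (adjusted p 0.00227) and fell by 1.27 in spleen (adjusted p 0.0387), and Cxcl15, a chemokine of lung epithelium, fell by 0.94 in lung (adjusted p 0.00748). Cxcl5 is not named in the annotation, and Cxcl3 was on the array but not above the floor in enough arrays of any organ.

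In the liver Cxcl2 was also called between injured arms, where Cxcl1 was not. MSC mice 16M, 44M, 61M, 100M and 101M had 7.49, 8.28, 6.49, 8.20 and 7.46 for Cxcl2. CLP mice 24C, 34C, 35C, 37C and 107C had 10.51, 9.27, 10.07, 9.34 and 8.62. The arms did not overlap, and MSC minus CLP was -1.98 (SE 0.35, limma adjusted p 0.0477), against -0.25 for Cxcl1. The difference between the genes was not tested. The call was close to the threshold: it passed in 4 of 20 other settings and missed in 16, with adjusted p up to 0.128, while the difference stayed between -2.21 and -1.70. In the same table MSC minus CLP was called for 4.14% of liver probes. For Cxcl2 it was -1.63 in kidney (adjusted p 0.136), -0.71 in lung (adjusted p 0.466), -0.58 in heart (adjusted p 0.647) and -2.20 in spleen (adjusted p 0.955), where 0.0146%, 0%, 0% and 0% of probes were called. With 0 calls by limma, 4775 of 20046 lung, 3170 of 20379 heart and 775 of 21512 spleen probes had an unadjusted p below 0.05. Without 107C, Cxcl2 passed in kidney at -2.32 (adjusted p 0.00109) and in lung at -1.34 (adjusted p 0.027).

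Most NF-kB targets and feedback genes that could be tested rose after CLP in the organs other than the spleen. Of 16 named on the array, 9 rose of 14 tested in liver, 11 of 15 in lung, 10 of 14 in kidney and 11 of 15 in heart, by limma. These are counts of tested genes only, and a gene above the floor in injured mice alone enters the test through the arm where it is high. The same limit holds for the counts of the other lists below. The shares of all probes that rose were 20.4%, 13.8%, 16.9% and 7.06% in these organs. Median list differences on the log2 scale were 1.30, 1.09, 1.49 and 1.20, while the median over all probes lay between -0.03 and 0.05. In the liver Zfp36, which destabilises cytokine messages, fell by 1.23 (adjusted p 0.00155) and the adhesion molecule Vcam1 fell by 1.22 (adjusted p 0.0243), where 17.5% of all probes fell. The heart count was 7 without sham heart 21S, 76S or 77S, or without CLP heart 37C.

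Among them, Socs3 rose by 4.04 in kidney (adjusted p 0.000319), 3.30 in heart, 2.50 in lung, 1.19 in liver and 4.04 in spleen (adjusted p 0.00941). Selp, the endothelial selectin that slows leukocytes, rose by 3.82 in heart (adjusted p 0.000373) and by 2.23 to 2.33 in liver, lung and kidney. Nfkbiz rose by 1.84 to 2.72 in these 4 organs, and Tnfaip3 by 1.37 to 2.58. In the spleen 2 of 15 tested, Socs3 and Bcl3, rose, where 3.16% of probes rose, and that count ranged from 0 to 9 over other settings. Between injured arms, MSC minus CLP had a median over the list of -0.53 in kidney, -0.42 in heart, -0.27 in lung, -0.19 in liver and -0.12 in spleen, where the median of all probes lay between -0.02 and 0.02. In liver 2 of 14 fell by limma, where 4.14% of all probes were called in either direction. They were Selp, which fell by 1.69 (adjusted p 0.0477), and Tnip1, a partner of A20, which fell by 0.72 (adjusted p 0.0483). In lung, heart and spleen 0 passed beside 0% of all probes, and in kidney 0 passed beside 0.0146%.

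Among chemokines outside the CXCR2 ligands, the genes that rose were 5 of 19 tested in liver, 10 of 22 in lung, 7 of 23 in kidney, 9 of 23 in heart and 4 of 23 in spleen, beside 20.4%, 13.8%, 16.9%, 7.06% and 3.16% of all probes. The liver count lies near its background. The spleen count was 2 without sham spleen s1, s2 or s4 or CLP spleen CLP2 or CLP8, 7 without MSC7 and 11 without CLP3. Cxcl13, which attracts B cells, rose in all 5 organs, by 4.81 in heart (adjusted p 0.000687) and 4.34 in lung (adjusted p 1.17e-07) at the upper end and 1.35 in spleen (adjusted p 0.0201) at the lower. Ccl3, a chemokine of monocytes and other leukocytes, rose by 1.93 to 2.72 in liver, lung, kidney and heart. The homing chemokine Cxcl12 fell by 2.05 in lung (adjusted p 6.17e-05) and fell by 1.71 in liver (adjusted p 0.000252). Falls were 3 in liver, 4 in lung, 2 in kidney, 1 in heart and 2 in spleen, where 17.5%, 15%, 17%, 7.75% and 2.45% of all probes fell.

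On the receiving side, Cxcr2, the receptor of Cxcl1, differed by 0.40 in lung (adjusted p 0.366), 0.52 in liver (adjusted p 0.158), -0.18 in heart (adjusted p 0.661) and -0.84 in spleen (adjusted p 0.357), none past the threshold. Ackr1, the atypical receptor on venules and red cells that binds Cxcl1 without signalling in the usual way, rose by 2.73 in heart (adjusted p 0.00013), 2.48 in lung (adjusted p 0.00246) and 1.42 in kidney (adjusted p 0.00257). Of 16 receptors named, 2 of 13 tested rose in lung, 1 of 10 in kidney, 2 of 12 in heart, 0 of 13 in liver and 0 of 13 in spleen. The lung and kidney counts lie near or below the shares of all probes that rose, 13.8% and 16.9%, and the share in heart was 7.06%. Falls were 5 of 13 in lung, 2 of 13 in liver, 2 of 13 in spleen, 1 of 10 in kidney and 0 of 12 in heart, beside 15%, 17.5%, 2.45%, 17% and 7.75% of all probes. The spleen count of falls was 1 without s2 and 0 without s4. That of kidney was 0 without sham 22S or 76S or CLP 24C or 35C, and 2 without CLP 34C or 107C or MSC 16M. The rises were those of Ackr1 and, in lung and heart, the chemokine scavenger Ackr2, and the lung falls included Cxcr5 of B cells (fell by 1.42, adjusted p 3.15e-06). Cx3cr1, a monocyte receptor, fell by 1.14 in lung (adjusted p 0.0273) and fell by 0.69 in liver (adjusted p 0.0126).

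Early cytokines rose at 5 of 10 tested in liver, 4 of 10 in kidney, 3 of 10 in heart, 2 of 10 in lung and 2 of 8 in spleen, beside 20.4%, 16.9%, 7.06%, 13.8% and 3.16% of all probes. These counts may hold genes tested through the injured arms alone. The mean over all 13 listed was 6.10 to 6.31 in sham kidneys and 6.10 to 6.41 in sham hearts, near the floor. It was 5.61 to 5.90, under the floor, in the 3 sham spleens used. The liver count was 3 without sham 78S or CLP 24C or 37C, and the lung count was 4 without CLP 107C. The spleen count was 1 without s1, s2, s4, CLP2, CLP8, CLP10 or MSC4, and 4 without CLP3 or MSC7. In liver 1 fell, Il18 (fell by 1.77, adjusted p 3.82e-05). Il1rn, the antagonist of the interleukin-1 receptor, rose by 5.07 in liver (adjusted p 1.21e-06) and by 1.41 to 1.72 in lung, kidney and heart. Il1b itself rose in kidney (1.61, adjusted p 0.00376) and liver (1.40, adjusted p 0.00569) and differed by 0.48 in lung (adjusted p 0.543).

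Of 18 acute phase genes on the array, 8 were tested in heart, 11 in kidney and 9 in lung, and several of these had sham means under the floor, so no count of them is given. Saa3, an inducible serum amyloid A, rose by 7.93 in heart (adjusted p 1.43e-09) and by 5.42 to 7.56 in the other organs. Lcn2, which withholds iron from bacteria, rose by 6.42 in kidney (adjusted p 2.61e-06) and by 1.41 in liver (adjusted p 0.000505).

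Neutrophil markers moved with Cxcl1 between arms outside the spleen. They rose at 7 of 11 tested in liver, 7 of 11 in lung, 7 of 10 in kidney and 5 of 11 in heart, beside 20.4%, 13.8%, 16.9% and 7.06% of all probes. In spleen 1 of 11, S100a9, rose, beside 3.16%, and the count was 0 without s1, s2, s4, CLP8, CLP10 or MSC4, 2 without MSC7 and 3 without CLP2. Their mean level ran from 8.13 to 9.10 in CLP livers against 6.81 to 7.93 in sham livers, and from 10.73 to 11.52 in CLP lungs against 9.12 to 10.02 in sham lungs. Ngp, a granule protein of maturing neutrophils, rose by 5.57 in lung (adjusted p 7.58e-09), and S100a8, a subunit of the neutrophil protein calprotectin, by 3.31 in liver (adjusted p 1.09e-05). In MSC mice the same means were 8.16 to 8.76 in livers and 10.80 to 11.56 in lungs, overlapping the CLP mice. Lymphocyte markers fell at 5 of 5 tested in lung, 3 of 5 in liver and 2 of 5 in spleen, beside 15%, 17.5% and 2.45% of all probes. In kidney 1 of 5 fell, near the 17% of all probes, and in heart 0 of 5 beside 7.75%. In lung their mean level was 9.01 to 9.44 in CLP mice against 10.40 to 10.74 in sham mice. The part of both marker lists in the Cxcl1 values was not tested.

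**Figure D5:**
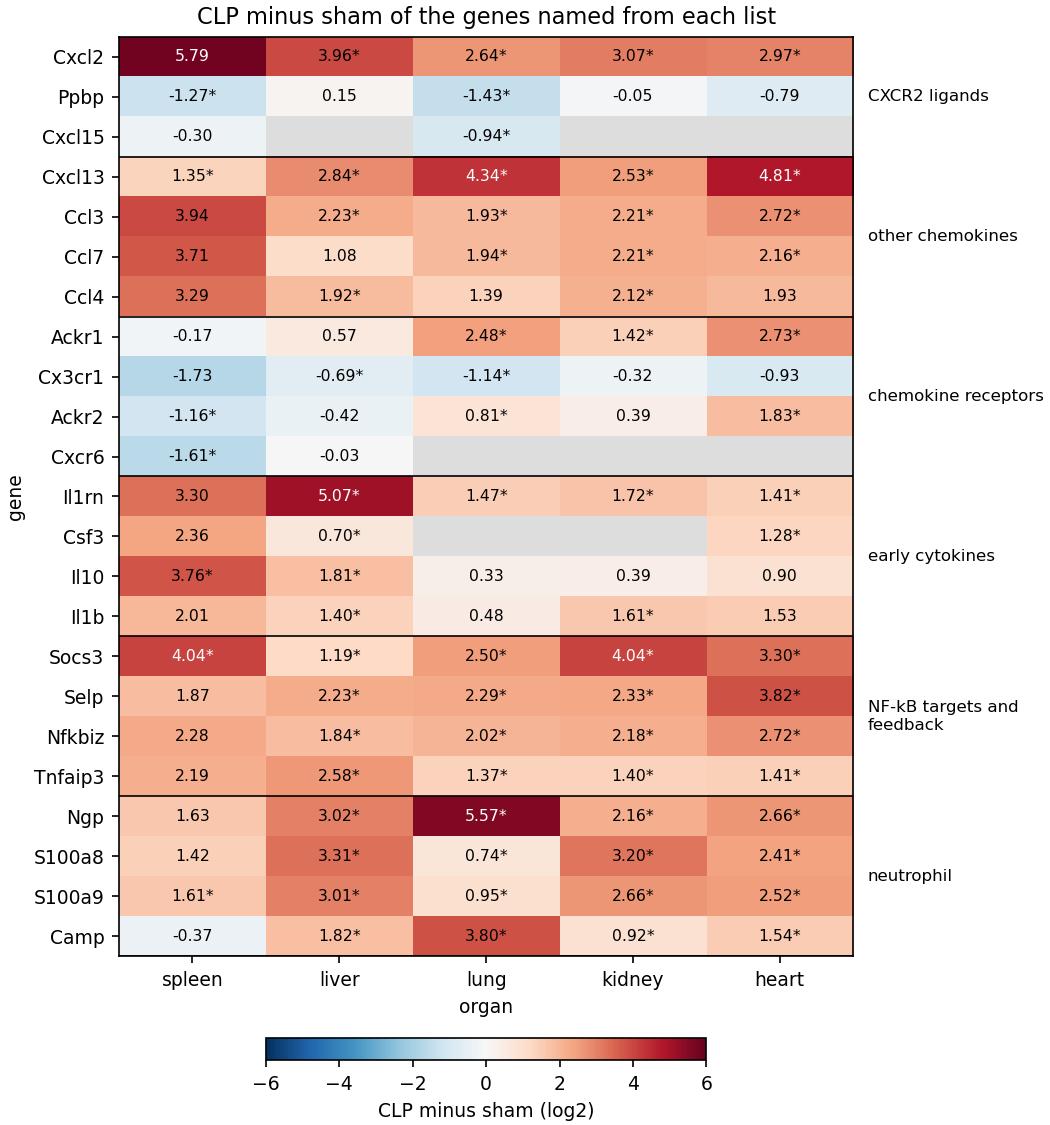
CLP minus sham difference (log2, colour and printed value) of the 4 genes named from each of 6 lists, or 3 for the CXCR2 ligands, in 5 organs; an asterisk marks an adjusted p below 0.05 by limma, and grey a gene not tested in that organ. Red cells of Cxcl2, Socs3, Selp, Nfkbiz and Tnfaip3 run through all organs, while Ppbp and Cx3cr1 lean blue.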

How the data were processed

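RNA of 72 organ samples was extracted with Trizol, labelled with biotin and hybridised to Illumina arrays, per the labels' protocols. The deposited tables hold 1 value per probe and array. The deposited values lie between 0.01 and 16.03 and were taken as log2 intensity from that range. The sources used here do not name the authors' software, background correction or normalization. Sorted values coincide to within 0.00225 log2 among spleens and 0.00352 among the other arrays, so the deposited values had been quantile normalized in these 2 sets. In 22751 of 45255 complete rows the columns are offset by 12 from the header, and the row of Cxcl1 is among the 22504 that follow it. The deposited series matrix, also log2, differs from that table by an amount per probe whose sign is opposite in spleens and in other organs. For Cxcl1 it is 0.318 higher in spleens and 0.318 lower in the other organs. Outside the spleen the tables agree otherwise within 0.001. The series matrix was used for the gene lists, with the 2 disputed spleens left out. The floor of 6 therefore meets spleen levels there that are shifted against those of the other organs. Sequence and names came from RefSeq (GRCm38.p6) and the platform annotation, in which 34885 of 45281 probes have 1 gene, 18 several and 10378 none. For a list gene with several probes the brightest was taken.

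Probes above 6 log2 in at least 4 spleens or 5 arrays of another organ (3 spleens for the lists) were fitted with lmFit and eBayes (limma 3.58.1, R 4.3.3), with all 3 arms of each organ in 1 fit, and p was adjusted over all probes (Benjamini-Hochberg, threshold 0.05). The same was done on the mean of 4 organs per mouse, the labels giving the same mouse numbers to these organs. The interaction was an F-test with the mouse as a fixed term. Kendall's W was tested by exact permutation of mice within organs. The fits were tested on simulated data. Probes and genes named are the 6 most and 2 least alike and the 4 of each list with the largest mean absolute CLP minus sham difference, plus Cxcr2 and the remaining CXCR2 ligands; other genes named beside a small count were chosen after their values were seen. Cxcl1 and the lists were chosen with earlier results of these data known. Alternatives were no filter, all rows as the header names them, other scaling, only the compared arms, array weights, other priors, blocks, the series matrix and each array or mouse left out. Chosen after seeing the data were the fits without the 2 disputed spleens, the likeness in the series matrix, and the alternatives for Cxcl2 and the lists.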

Additional observations from a re-analysis of the deposited data

How the results depend on the processing

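Of 495 alternative values for Cxcl1, 470 counted as unchanged, 12 lost and 5 gained the threshold and 8 changed sign. Kendall's W was counted at its unadjusted p. Unchanged meant the same direction and side of the threshold for the MSC contrasts, and the same side for the interaction and W. For CLP minus sham, with no p, it meant the same sign and a shift under the larger SD of the arms compared. For the likeness, also with no p, it meant a small change of r. The 470 thus include values never set against a threshold. Blocks changed no call: with the mouse as a replicate block over the 60 arrays the 4-organ mean gave -0.70 for MSC minus CLP (adjusted p 0.185) and 3.08 for MSC minus sham (adjusted p 9.96e-08), and with the spleen label set as a block MSC minus sham was 5.54 (adjusted p 0.0246). The interaction with the mouse as a random replicate block had F 1.56 (adjusted p 0.405). With array weights MSC minus CLP passed in the kidney (-2.20, adjusted p 0.00725) and the 4-organ mean (-1.13, adjusted p 0.0233), as it did without CLP mouse 107C (-2.30 and -1.02). With 1 array or mouse left out, MSC minus CLP ran from -1.59 to 0.47 in spleen, -0.40 to 0.37 in lung, -2.30 to -1.17 in kidney and -1.02 to -0.38 in the 4-organ mean, MSC minus sham in spleen from 4.40 to 6.38, and Kendall's W of the CLP arm from 0.23 to 0.70. Leaving out single arrays turned the sign of MSC minus CLP in the lung (0.01 to 0.37 without CLP 24C or 35C or MSC 16M, 61M or 101M) and in the spleen (0.31 to 0.47 without CLP A or MSC C or D), with adjusted p from 0.703 to 1. MSC minus sham in the spleen missed the threshold with the series matrix (2.03), without the 2 disputed arrays (5.04) and without C2, D2 or any sham spleen (4.40 to 5.58). Kendall's W of the CLP arm was 0.56 without the lung or the heart (exact p 0.163), 0.62 without the kidney (exact p 0.0959), 0.23 without mouse 24C and 0.89 without the liver (exact p 0.00403, all unadjusted), and that of the sham arm was 0.82 without the kidney (exact p 0.0151, unadjusted). Socs3 led the likeness over all arrays without each of 14 of 15 mice, and Cp that of the deviations without each of 10 of 15. By Spearman's rho Cp led both (0.89 and 0.81), and with the 4 organs pooled Socs3 (0.90) and Cxcl2 (0.82) led. The cause of these changes was not tested. Of 759 values for Cxcl2 and the lists, 674 stayed on the same side or within 1.5 times the count. Arrays of 4 or 5 per arm limit the precision, and the disputed spleen labels limit every spleen result.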
